A study of Homo sapiens with 4 samples.

Results

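The genes described here are 46 DNA replication genes, chosen by symbol from the count tables, out of 23228 genes in all. They encode the machinery that licenses, opens and copies DNA, together with enzymes that supply nucleotides and with the regulators CCNE1, CCNE2 and E2F1. The cells were A673, an established Ewing sarcoma line grown in DMEM with fetal bovine serum, and they had been transfected by RNAiMAX with a scrambled siRNA (control) or with one that targets FAT4, an atypical cadherin. RNA was sequenced from 1 library of each siRNA at 24 h and at 48 h, so each of the 4 groups was a single library. No group had a second culture, and no untransfected cells were analysed here. The p-values below therefore weigh a change against how far the 4 libraries depart from additive siRNA and time terms, with 1 residual degree of freedom. In the main edgeR fit that departure was pooled over genes, with infinite prior degrees of freedom. A gene's own disagreement between the times does not widen its test there. The spread between cultures is not measured.

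DNA replication starts when the origin recognition complex, CDC6 and CDT1 load the MCM2 to MCM7 ring onto origins in G1. In S phase CDC45 and the GINS complex turn the ring into an active helicase, DNA polymerase alpha with primase lays down primers, and polymerases delta and epsilon extend them on the sliding clamp PCNA, which the RFC complex loads. RPA coats single-stranded DNA, and FEN1 and LIG1 finish the lagging strand. Many of these genes are known targets of E2F transcription factors, which cyclin E and its kinase help to free from the retinoblastoma protein.

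Gene counts totalled 15196813 to 22625833 per library, and the members held 0.739% to 0.864% of them. The target transcript FAT4 stood at 165 CPM (24 h) and 149 CPM (48 h) in control cells, against 71.8 CPM (24 h) and 60.2 CPM (48 h) after FAT4 siRNA, where CPM is the read count scaled to a common library size with TMM factors. It fell by 1.25 on the log2 scale with the FAT4 siRNA (SE 0.0978, edgeR adjusted p = 8.65e-34). Of 9 Ewing sarcoma markers, 8 passed the filter on low counts, and CD99 had 0 counts in every library. CD99 lies in a pseudoautosomal region and A673 cells are known to express it, so this 0 is not read as absent expression. The homeobox gene NKX2-2, one of these markers, was at 76.4, 86.0, 52.4 and 38.4 CPM, in the order control 24 h, control 48 h, FAT4 siRNA at 24 h, then at 48 h, which is kept for every row of 4 values below. It had the lowest log2 fold change of the 8 with the FAT4 siRNA, at -0.85. In the edgeR fit 2 of the 8 rose (CAV1 by 0.53 and LIPI by 0.31), 3 fell and 3 were not called. Of all genes tested, 11.9% were called higher and 14.1% lower. Markers of blood, epithelium, endothelium and liver were at or under 0.474 CPM, with ALB at 0 in all 4 libraries. A level of 3 counts corresponded to 0.134 to 0.203 CPM. All 46 members passed the filter and were tested.

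Promoter sequences are shown here because E2F factors are known to act on many of these genes at their promoters. RefSeq promoters (GRCh38.p14, 250 bases before to 50 after the start) were at hand for 39 members. They were not at hand for MCM4, MCM5, GINS4, POLD3, RPA2, RPA3 and CCNE2. The E2F words TTTGGCGC, TTTCCCGC, TTTGGCGG and TTTCCCGG, searched on both strands, occurred in 22 of the 39 (56.4%), against 7.08% of 9392 tested genes and 4.35% of all 27305 promoters in the table. None of the 4 words contains another or CCAAT. Of the 26 words found, 18 began within 60 bases of the start site, and CDC6, CDT1, MCM6 and POLE2 held 2 each. The short word CCAAT, searched likewise on both strands, occurred in 61.5% of the members' promoters and 36.5% of those of tested genes. Printed 5′ to 3′ on the gene's strand with the E2F words in capitals are 3 licensing or helicase genes with paired words, the clamp gene PCNA and E2F1 itself. They lie at chr17:40287836-40287908 on the plus strand (CDC6), chr16:88803739-88803784 on the plus strand (CDT1), chr2:135876511-135876610 on the minus strand (MCM6), chr20:5126659-5126696 on the minus strand (PCNA) and chr20:33686383-33686420 on the minus strand (E2F1).
CDC6: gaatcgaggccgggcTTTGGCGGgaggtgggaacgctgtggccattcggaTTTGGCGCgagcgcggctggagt
CDT1: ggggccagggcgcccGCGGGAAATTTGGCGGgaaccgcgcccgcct
MCM6: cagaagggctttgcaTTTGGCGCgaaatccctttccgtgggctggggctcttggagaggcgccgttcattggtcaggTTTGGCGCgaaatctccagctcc
PCNA: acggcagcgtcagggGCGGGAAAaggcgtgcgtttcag
E2F1: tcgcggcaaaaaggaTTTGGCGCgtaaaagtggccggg
In CDT1 the words abut on opposite strands, and in CDC6 the second word starts 7 bases past the start site. A match is a run of letters in these windows and not a measured binding site.

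With the FAT4 siRNA, 13 of the 46 members rose and 7 fell over both times, while 26 did not pass the edgeR test at an adjusted p of 0.05. Across all 13712 genes tested, 11.9% were called higher and 14.1% lower, so the share of members that fell was near that of all genes. The members' median log2 fold change was 0.109, beside -0.0137 for all genes tested, and 30 members had a positive and 16 a negative value. The members called higher were ORC6, CDC6, MCM8, GINS4, MCM10, PRIM1, PRIM2, POLE2, PCNA, RFC4, FEN1, RRM2 and CCNE2. Those called lower were MCM3, MCM5, GINS1, POLA2, POLD1, POLD2 and LIG1. Of these 20 calls, DESeq2 lost ORC6, MCM3, GINS1, GINS4, MCM10, POLA2, POLD2, POLE2, LIG1 and CCNE2, and an assumed biological coefficient of variation of 0.1 lost the same genes but for CCNE2, with MCM8 in its place. The changes were small, from -0.47 for POLD1 to 0.60 for PRIM1 on the log2 scale. In bulk RNA, a different share of cells in S phase and a different amount of RNA per cell cannot be told apart.

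**Figure D1:**
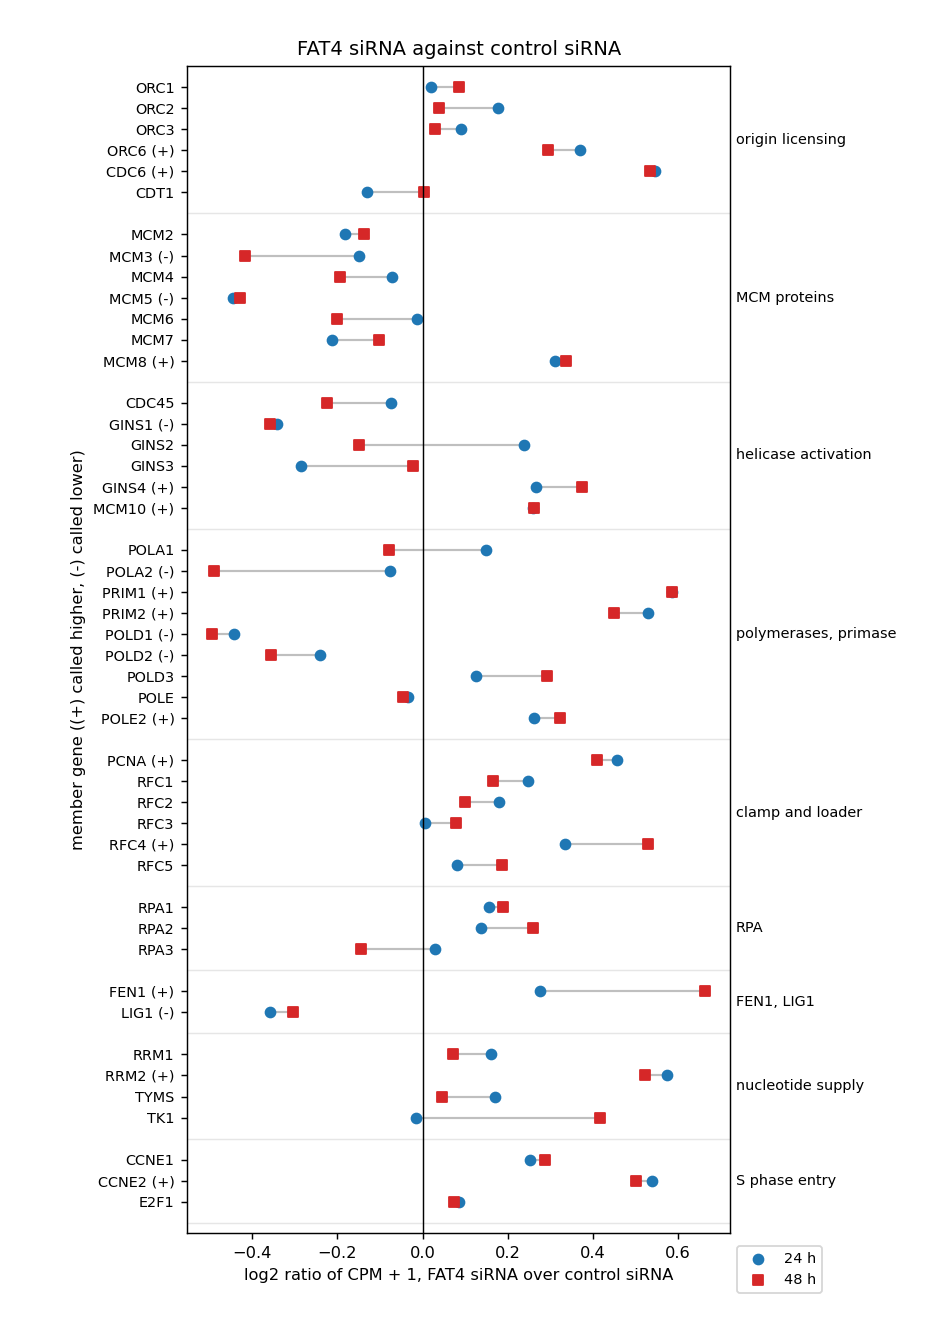
Log2 ratio of CPM + 1, FAT4 siRNA over control siRNA, for each of the 46 members grouped by role, with 24 h as circles and 48 h as squares; a plus or minus after the symbol marks members called higher or lower in the fit over both times. Each point is a ratio of 1 library to 1 library; PRIM1, CDC6 and RRM2 lie far to the right at both times, POLD1 and MCM5 far to the left, and FEN1, TK1, POLA2 and GINS2 have points far apart.

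Among the 6 origin licensing genes, 2 rose and none fell with the FAT4 siRNA. For this and each role below, the shares over all genes tested are 11.9% higher and 14.1% lower. With few genes in each role, a count of none is not read as a trait of it. CDC6, the loader that brings the MCM ring to the origin, stood at 82.4 and 65.1 CPM in the control libraries (24 h, 48 h) and 121 and 94.8 CPM in the FAT4 siRNA libraries (24 h, 48 h). Both FAT4 siRNA libraries lay above both control libraries. CDC6 rose by 0.55 on the log2 scale (SE 0.0981, edgeR adjusted p = 8.37e-07), and its ratio was 1.47 at 24 h (95% counting interval 1.37 to 1.56) and 1.46 at 48 h (1.35 to 1.57). These intervals cover counting error only. ORC6, the smallest and most loosely held subunit of the origin recognition complex, was at 51.8, 47.4, 67.2 and 58.4 CPM . It rose by 0.34 (edgeR adjusted p = 0.0102). ORC1, ORC2, ORC3 and CDT1 had log2 fold changes between -0.06 and 0.11 and were not called.

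The 6 subunits of the MCM2 to MCM7 ring all had negative log2 fold changes, from -0.44 to -0.11, and 2 of them fell. The sign was the same under every scaling tried. After a correction for GC content and transcript length MCM5 stood at -0.32 and MCM3 at -0.24, both still called, while MCM2 and MCM7 were near 0, at -0.02 and -0.03. MCM5 was at 392 CPM (24 h) and 270 CPM (48 h) in control cells, against 288 CPM (24 h) and 201 CPM (48 h) after FAT4 siRNA. It was lower with the FAT4 siRNA at each time, although control 48 h lay below FAT4 siRNA 24 h. Its log2 fold change was -0.44 (SE 0.0896, edgeR adjusted p = 2.07e-05). MCM3 was at 441, 428, 397 and 320 CPM, and its log2 fold change was -0.28 (edgeR adjusted p = 0.0084). MCM2, MCM4, MCM6 and MCM7, at -0.16, -0.13, -0.11 and -0.16, were not called. MCM8, a related protein that acts with MCM9 in homologous recombination and is no part of the ring, went the other way: 136, 114, 169 and 144 CPM, and a rise of 0.33 (edgeR adjusted p = 0.00378).

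The genes that turn the ring into a moving helicase were split. MCM10, which helps CDC45 and GINS activate the ring, was at 119, 99.0, 143 and 119 CPM and rose by 0.26 (edgeR adjusted p = 0.0262). GINS4 was at 60.3 and 59.2 CPM in the control libraries (24 h, 48 h) and 72.6 and 77 CPM in the FAT4 siRNA libraries (24 h, 48 h), and it rose by 0.32 (edgeR adjusted p = 0.01). Its partner GINS1 was at 79.9, 77.5, 62.8 and 60.2 CPM, with both FAT4 siRNA libraries below both controls. The log2 fold change of GINS1 was -0.36 (edgeR adjusted p = 0.00391). In the edgeR fit these subunits of the same complex thus moved in opposite directions, but both calls were among those lost with DESeq2 and with the assumed variation, while GINS2, GINS3 and CDC45 were not called.

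Primase and the polymerases also moved in both directions. PRIM1, the catalytic subunit of primase, had the highest fold change of all 46 members in this fit. It was at 54.7 CPM (24 h) and 52.3 CPM (48 h) in control cells, against 82.7 CPM (24 h) and 78.9 CPM (48 h) after FAT4 siRNA. The ratio was 1.51 at both times, each with a counting interval of 1.39 to 1.64, and the rise was 0.60 on the log2 scale (SE 0.104, edgeR adjusted p = 3.46e-07). After the GC and length correction PRIM1 stood at 0.44, below CDC6, RRM2 and FEN1 at 0.55, 0.53 and 0.53. PRIM2, the large primase subunit, was at 33.3, 28.9, 48.5 and 39.8 CPM and rose by 0.50 (edgeR adjusted p = 0.000364). POLE2, the second subunit of polymerase epsilon, was at 39.1, 33.7, 47.1 and 42.4 CPM. It rose by 0.30 with an edgeR adjusted p of 0.0447. It was not called when libraries were scaled by total counts only, and after the GC and length correction its log2 fold change was 0.21 with an adjusted p of 0.142.

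Of the 3 polymerase delta subunits among the members, 2 fell. POLD1, which carries the catalytic site, was at 131 and 105 CPM in the control libraries (24 h, 48 h) and 96.0 and 74.0 CPM in the FAT4 siRNA libraries (24 h, 48 h). Both FAT4 siRNA libraries lay below both controls, and the log2 fold change was -0.47 (SE 0.0968, edgeR adjusted p = 2.11e-05). POLD2, its accessory subunit, was at 233, 202, 197 and 158 CPM with a log2 fold change of -0.30 (edgeR adjusted p = 0.00672). POLA2, the regulatory subunit of polymerase alpha, was at 172, 149, 163 and 106 CPM, so that its lower mean rested mostly on 48 h, and its log2 fold change was -0.28 (edgeR adjusted p = 0.0139). After the GC and length correction POLD1, POLD2 and POLA2 stood at -0.19, -0.17 and -0.19 and were no longer called. The catalytic subunits POLA1 and POLE, at 0.04 and -0.04, were not called either, nor was POLD3 at 0.21.

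Of the clamp and its loader, 2 of 6 rose and none fell. PCNA, the ring that tethers polymerases to DNA, was at 359 CPM (24 h) and 343 CPM (48 h) in control cells, against 494 CPM (24 h) and 457 CPM (48 h) after FAT4 siRNA. Both FAT4 siRNA libraries stood above both controls by more than counting error, with ratios of 1.37 (1.33 to 1.42) and 1.33 (1.29 to 1.37), and PCNA rose by 0.43 on the log2 scale (SE 0.0886, edgeR adjusted p = 1.99e-05). RFC4, a small subunit of the loader, was at 86.7 CPM in both control libraries and at 110 CPM (24 h) and 126 CPM (48 h) after FAT4 siRNA. It rose by 0.44 (edgeR adjusted p = 9.54e-05). RFC1, RFC2, RFC3 and RFC5 had values of 0.21, 0.14, 0.04 and 0.14 and were not called, and RFC3 became negative, at -0.11, after the GC and length correction. The RPA subunits RPA1, RPA2 and RPA3, at 0.17, 0.20 and -0.06, were not called.

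The enzymes that finish the lagging strand moved in opposite directions. FEN1, the nuclease that trims the flap at the end of an Okazaki fragment, was at 250 and 179 CPM in the control libraries (24 h, 48 h) and 303 and 285 CPM in the FAT4 siRNA libraries (24 h, 48 h). FEN1 rose by 0.47 on the log2 scale (SE 0.0900, edgeR adjusted p = 4.37e-06). LIG1, the ligase that seals the nick, was at 171, 133, 133 and 108 CPM with a log2 fold change of -0.33 (edgeR adjusted p = 0.00317). After the GC and length correction LIG1 stood at -0.21 (SE 0.0760, edgeR adjusted p = 0.0600) and was no longer called. FEN1 stood at 0.53 and still was.

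All 4 nucleotide supply genes had positive values and 1 rose. RRM2, the small subunit of ribonucleotide reductase, was at 425 CPM (24 h) and 328 CPM (48 h) in control cells, against 633 CPM (24 h) and 472 CPM (48 h) after FAT4 siRNA. Both FAT4 siRNA libraries were above both controls, and the rise was 0.55 on the log2 scale (SE 0.0886, edgeR adjusted p = 2.78e-08). Its partner RRM1, at 404, 316, 452 and 332 CPM, had a log2 fold change of 0.12 and was not called. Thymidylate synthase TYMS (0.11) and thymidine kinase TK1 (0.20) were not called. CCNE2, one of the E cyclins that open S phase, was at 22.0, 15.2, 32.4 and 21.9 CPM and rose by 0.54 (SE 0.137, edgeR adjusted p = 0.000746). CCNE1 had a log2 fold change of 0.31 with an adjusted p of 0.271 at 4.27 to 9.94 CPM, the lowest levels among the members, and E2F1 had 0.08.

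**Figure D2:**
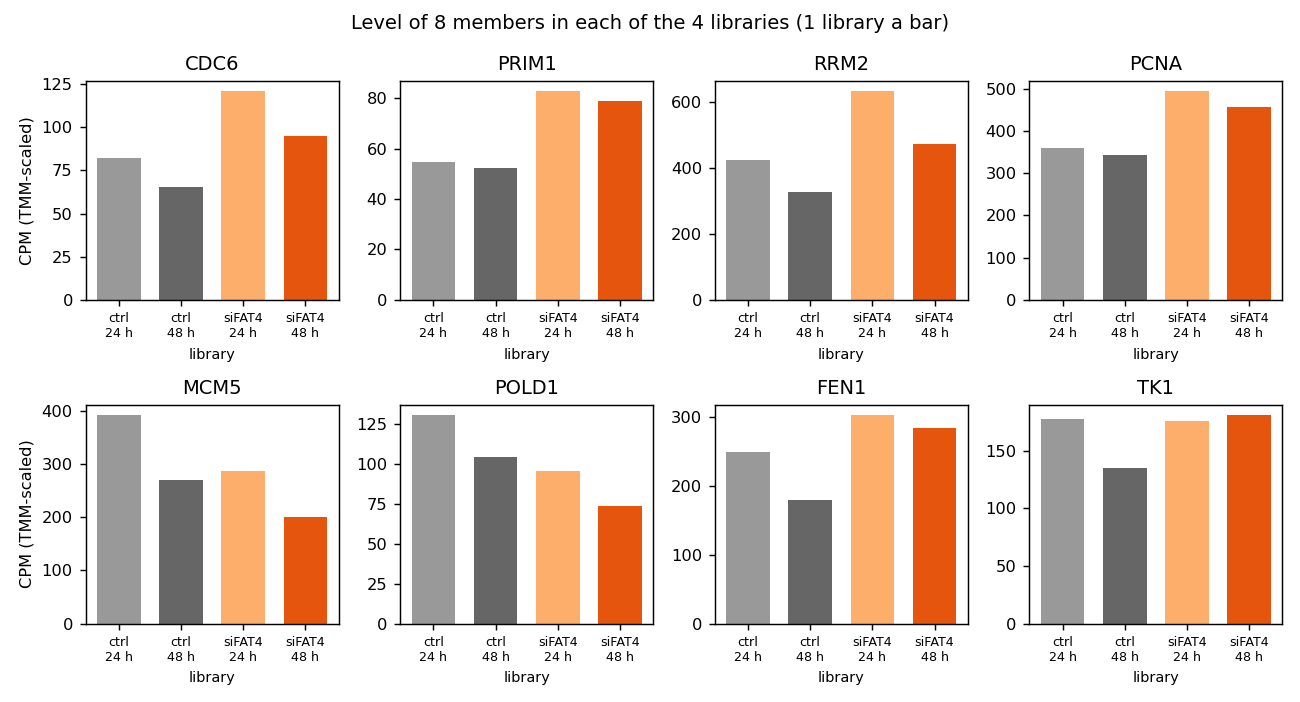
CPM of 8 members in each of the 4 libraries, 1 bar a library, with the vertical axis from 0. CDC6, PRIM1, RRM2 and PCNA are higher in both FAT4 siRNA libraries than in either control, MCM5 and POLD1 are lower with the FAT4 siRNA at each time, and FEN1 and TK1 are low in control 48 h.

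At single times, judged by the counting interval of the plain CPM ratio, 23 members lay above and 12 below 1 at 24 h, and 20 above and 13 below at 48 h. By the same criterion 24.4% of all genes tested lay above and 27.3% below at 24 h, and 27.4% and 28.2% at 48 h. The share of members below 1 was near that of all genes at each time. At both times 18 members lay above and 10 below, beside 16.2% and 17.5% of all genes tested. The exception was GINS2, whose interval lay above 1 at 24 h and below 1 at 48 h. Over the members the median log2 ratio came to 0.132 at 24 h and to 0.0765 at 48 h.

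The siRNA ratios of some members differed between the times. The difference of the log2 ratios, 48 h minus 24 h, cannot be tested here because it uses up every library, and its interval covers counting error only. It lay above 0 for 5 members and below 0 for 10, and included 0 for 31. Among 13672 genes with a count in every library, it lay above 0 for 16.5% and below 0 for 16.9%. The share of members whose interval excluded 0, on either side, was thus near that of these genes. TK1, the salvage kinase for thymidine, was at 178 and 135 CPM in the control libraries (24 h, 48 h) and 176 and 181 CPM in the FAT4 siRNA libraries (24 h, 48 h). Control 48 h was the low library and the other 3 were close together, which gave a difference of 0.433 (0.329 to 0.537). FEN1 showed the same low value in control 48 h, with ratios of 1.21 at 24 h and 1.59 at 48 h and a difference of 0.391 (0.306 to 0.476). RFC4 had a difference of 0.196 (0.0630 to 0.329), with its highest value in FAT4 siRNA 48 h.

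The lowest differences were those of POLA2, GINS2, MCM3 and POLA1. POLA2 had ratios of 0.948 at 24 h and 0.710 at 48 h, and a difference of -0.417 (-0.530 to -0.303). FAT4 siRNA 48 h was its low library. GINS2 was at 81.7 CPM (24 h) and 70.1 CPM (48 h) in control cells, against 96.5 CPM (24 h) and 63.0 CPM (48 h) after FAT4 siRNA, and its difference was -0.393 (-0.547 to -0.239). It was the highest with the FAT4 siRNA at 24 h and the lowest with the same siRNA at 48 h. MCM3 had a difference of -0.268 (-0.337 to -0.200), with ratios of 0.901 and 0.748. POLA1 was at 105, 99.0, 117 and 93.7 CPM with a difference of -0.229 (-0.361 to -0.0967). GINS3, at 29.4, 21.4, 23.9 and 21.0 CPM, had a difference of 0.274 whose interval of -0.0050 to 0.552 included 0.

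From 24 h to 48 h, 22 of the 46 members fell and 1 rose in the fit over both siRNAs, and 23 were not called. Of all genes tested, 13.8% were called higher and 12.8% lower at 48 h. The members' median log2 fold change was -0.239, beside 0.00896 for all genes tested, and 40 of the 46 values were negative. The genes that fell were ORC1, CDC6, MCM2, MCM4, MCM5, MCM8, GINS2, MCM10, POLA2, POLD1, POLD2, POLE, RFC2, RFC3, RPA1, FEN1, LIG1, RRM1, RRM2, TYMS, CCNE1 and CCNE2. In the edgeR fit each role thus had at least 1 member that fell. Of these falls, DESeq2 lost CDC6, MCM8, MCM10, POLD1, POLD2, RFC2, RFC3, RPA1, FEN1, TYMS, CCNE1 and CCNE2. The assumed biological coefficient of variation of 0.1 lost the same genes but for CCNE1 and CCNE2, with MCM2 and LIG1 in their place. The split of calls over all genes moved with the scaling, from 51.9% higher among calls with TMM to 65.2% with upper quartile scaling, 66.3% with total counts only and 37.4% after the GC and length correction. Under those settings 15, 15 and 30 members fell.

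The fall was seen with each siRNA. The median member log2 ratio of 48 h to 24 h was -0.232 in the control libraries and -0.235 in the FAT4 siRNA libraries. By counting intervals 35 members were lower at 48 h in control and 33 with the FAT4 siRNA, and 32 were lower in both, while 3 were higher in each. Of all genes tested, 27.7% were lower at 48 h in control and 27.7% with the FAT4 siRNA, 17.9% were lower in both, and 27.2% and 25.6% were higher. ORC3 was higher in both, and no member was higher in one and lower in the other.

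**Figure D3:**
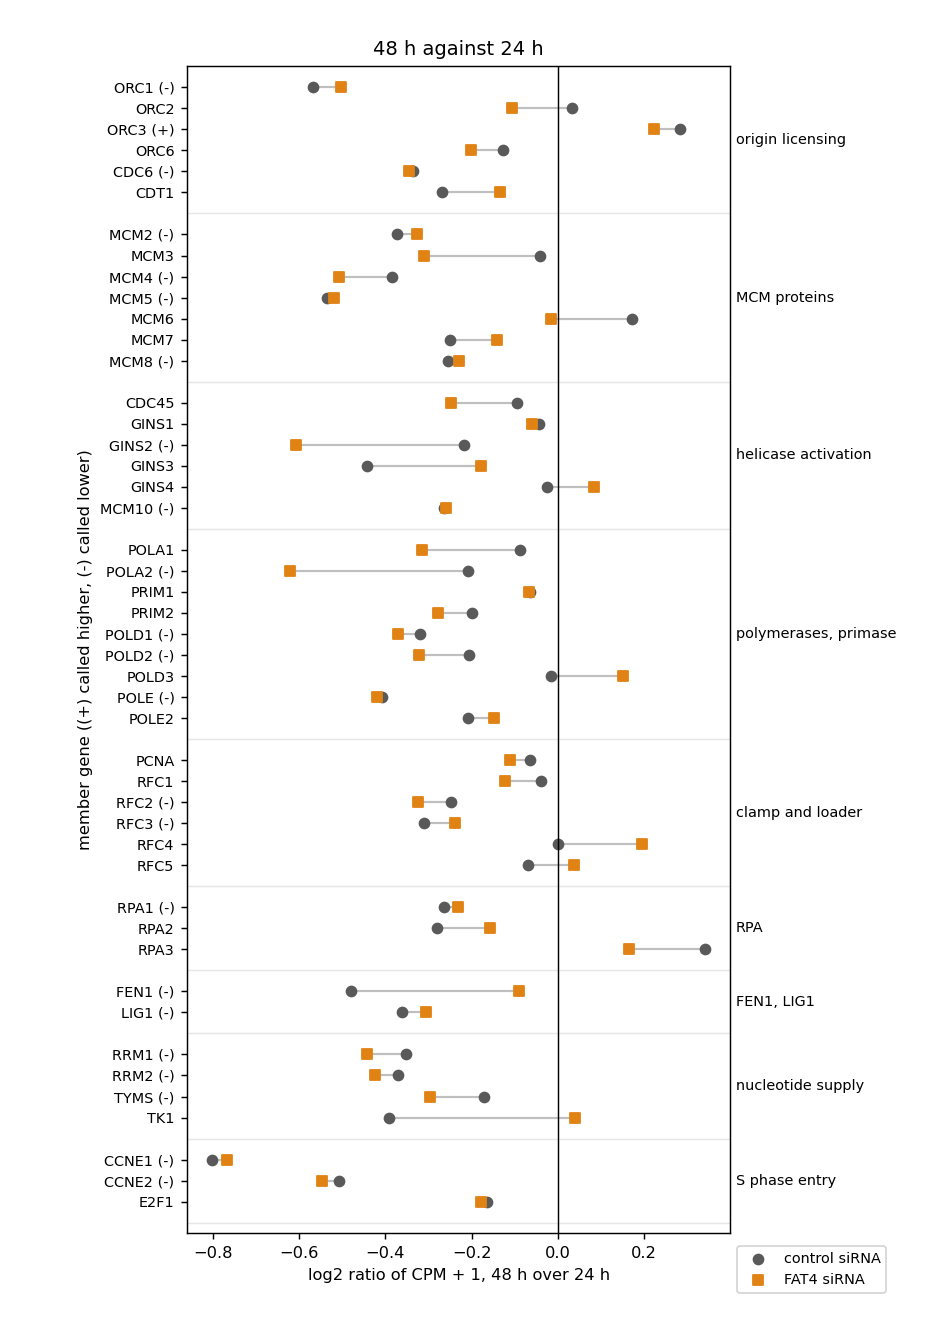
Log2 ratio of CPM + 1, 48 h over 24 h, for each of the 46 members grouped by role, in control siRNA (circles) and FAT4 siRNA (squares); a plus or minus after the symbol marks members called higher or lower in the fit over both siRNAs. Each point is a ratio of 1 library to 1 library; most points lie left of 0, CCNE1 farthest, and ORC3 and RPA3 lie right of 0 with both siRNAs.

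In the edgeR fit the E cyclins had the largest falls, but both calls were among those lost with DESeq2. CCNE1 was at 8.19 and 4.27 CPM in the control libraries (24 h, 48 h) and 9.94 and 5.43 CPM in the FAT4 siRNA libraries (24 h, 48 h), from 183, 86, 147 and 85 counts. Both 48 h libraries were below both 24 h libraries. Its log2 fold change was -0.90 (SE 0.204, edgeR adjusted p = 0.000141). CCNE2 had -0.55 (SE 0.137, edgeR adjusted p = 0.000624) and its level in FAT4 siRNA 48 h was close to that in control 24 h. E2F1, at 109, 96.8, 115 and 102 CPM, had -0.17 and was not called.

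Among the licensing and helicase genes, ORC1, the ATP-binding subunit of the origin recognition complex, was at 128 CPM (24 h) and 86.1 CPM (48 h) in control cells, against 130 CPM (24 h) and 91.4 CPM (48 h) after FAT4 siRNA. The libraries paired by time and not by siRNA. Its log2 fold change was -0.54 (SE 0.0961, edgeR adjusted p = 6.19e-07). ORC3, a core subunit of the same complex, was at 59.6, 72.7, 63.4 and 74.2 CPM and rose by 0.26 with an adjusted p of 0.0484, a call that was lost under 6 of the 9 other settings. MCM5 and MCM4 had the largest falls of the ring, with -0.53 (edgeR adjusted p = 1.47e-07) and -0.45 (edgeR adjusted p = 1.03e-05). MCM4 was at 602, 461, 573 and 403 CPM, and MCM2, with -0.35, at 529, 408, 466 and 371 CPM. MCM6, at 306, 345, 304 and 300 CPM, had 0.08 and was not called, and neither were MCM3 and MCM7. CDC6 had -0.34 (edgeR adjusted p = 0.00345), GINS2 -0.41 (edgeR adjusted p = 0.000473) and MCM8 and MCM10 -0.24 and -0.26.

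Of the polymerase genes, POLE, the catalytic subunit of the leading-strand polymerase, was at 328 and 247 CPM in the control libraries (24 h, 48 h) and 320 and 239 CPM in the FAT4 siRNA libraries (24 h, 48 h). The siRNAs gave nearly equal levels at each time. Its log2 fold change was -0.42 (SE 0.0895, edgeR adjusted p = 6.21e-05). POLA2 had -0.41 (edgeR adjusted p = 0.000156), POLD1 -0.35 (edgeR adjusted p = 0.00267) and POLD2 -0.26 (edgeR adjusted p = 0.0198). The primase genes PRIM1 and PRIM2, at -0.07 and -0.25, were not called. RFC2 was at 99.8, 84.0, 113 and 90.1 CPM and RFC3 at 118, 95.2, 119 and 101 CPM, with log2 fold changes of -0.29 and -0.28. RPA1, the large subunit of RPA, was at 287, 239, 320 and 272 CPM and had -0.25 (edgeR adjusted p = 0.0258).

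Ribonucleotide reductase fell in both subunits. RRM1 had a log2 fold change of -0.40 (SE 0.0888, edgeR adjusted p = 0.000112) and RRM2 of -0.40 (SE 0.0884, edgeR adjusted p = 0.000109). TYMS, which makes thymidylate, was at 453, 402, 510 and 415 CPM and had -0.23 (edgeR adjusted p = 0.0350). FEN1 and LIG1 had -0.29 and -0.34. For FEN1 the ratio of 48 h to 24 h was 0.717 in control (0.687 to 0.747) and 0.940 with the FAT4 siRNA (0.901 to 0.980). The clamp PCNA, at -0.09, was not called.

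Crossing both comparisons, 6 members rose with the FAT4 siRNA and fell with time (CDC6, MCM8, MCM10, FEN1, RRM2 and CCNE2), and 5 fell in both (MCM5, POLA2, POLD1, POLD2 and LIG1). With DESeq2, only RRM2 of the former group and MCM5 of the latter kept both calls. In the edgeR fit a further 11 fell with time only by their calls, and 9 were called for the siRNA only. ORC3 was called for time only, and 14 were called in neither. The same crossing was not made over all genes tested, so these counts are not read as particular to the members. Whether an effect passing in 1 comparison differs from an effect not passing in the other was not tested. The E2F words of the promoters occurred in 5 of 11 members that rose with the FAT4 siRNA, 4 of 6 that fell and 13 of 22 not called. They occurred in 9 of 19 members that fell with time and 12 of 19 not called for time.

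Per length, the members covered a wide range. TPM values, which scale counts by transcript length, were taken with the longest coding transcript of each gene in GENCODE 29. The median member was at 101 to 120 TPM in the 4 libraries. PCNA had the highest mean, 911 TPM (773 to 1058 over the 4 libraries), followed by TYMS with 801 and MCM7 with 532. CCNE1 had the lowest mean, 10.1 TPM (6.49 to 14.2), below CCNE2 with 20.5 and RPA3 with 27.1. The ranges of PCNA and TYMS overlapped, as did those of the neighbours RRM2, MCM3, MCM2, RRM1 and MCM4 with means of 378 to 364 TPM.

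The ring subunits MCM2 to MCM7 are used in equal numbers, and their levels per length stayed within 2.16-fold to 2.81-fold of each other in each library, always with MCM7 highest. The lowest was MCM6 in both 24 h libraries and MCM5 in both 48 h libraries. The GINS genes lay 2.36-fold to 3.43-fold apart, with GINS3 lowest and GINS2 highest in every library. The RFC genes lay 2.03-fold to 2.70-fold apart with RFC4 highest. RPA3, with a transcript length of 2020 bases, lay well below its partners RPA1 (193 TPM on average) and RPA2 (187 TPM). Which transcript of each gene these cells express was not determined, and another length would shift these comparisons between subunits.

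**Figure D4:**
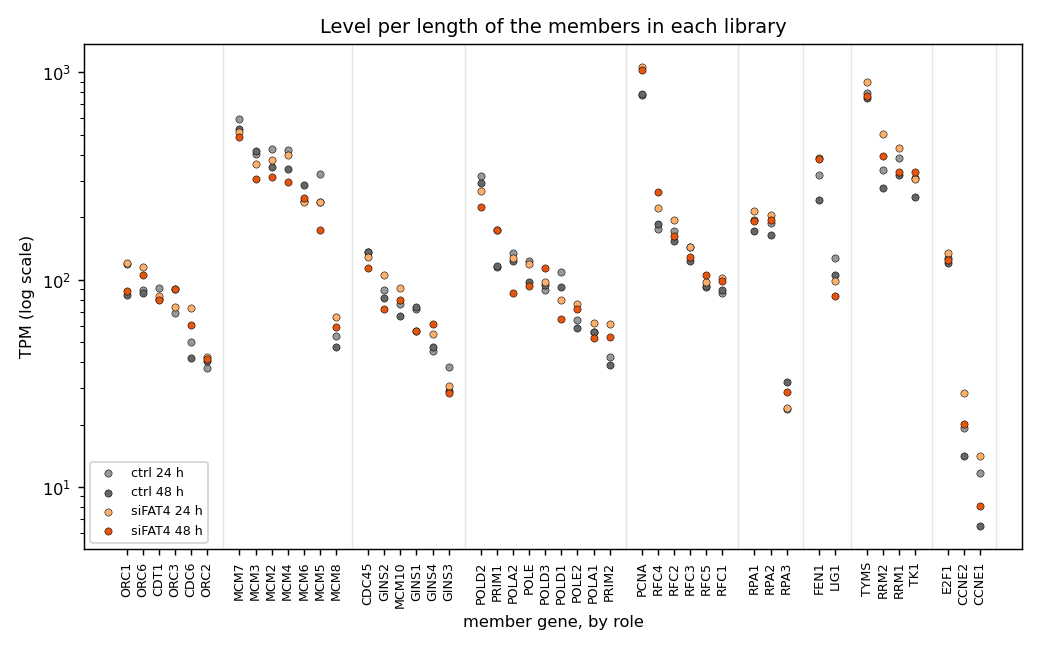
TPM of each member in the 4 libraries on a log axis, members grouped by role and ordered by mean within it; each point is 1 library. PCNA and TYMS stand at the top, CCNE1 and CCNE2 at the bottom, and MCM8 stands below the 6 ring subunits.

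GC content moved with the siRNA ratios, in the members as in all genes. Members that rose had a median GC content of 44.4% in the longest coding transcript, those that fell 56.3%, those not called 48.4%, and all genes tested 48.5%. Over 46 members, Spearman's rho of GC content with the siRNA ratio came to -0.543 at 24 h and to -0.387 at 48 h, and over 13092 genes to -0.524 and -0.207. These are correlations across genes of the same libraries, which share depth and preparation, and genes are not independent replicates. With GC content and length as offsets in the edgeR fit, 15 members were higher and 3 lower with the FAT4 siRNA, beside 11.1% higher and 10.0% lower of 13092 genes, among which calls also turned from more lower to more higher. POLA2, POLD1, POLD2, POLE2 and LIG1 were no longer called, and RPA1, TK1 and E2F1 were newly called. The sign of the fold change was the same for 42 of 46, the others being ORC3, CDT1, POLE and RFC3. GINS1 was lower at a GC content of 41.4% and FEN1 higher at 53.7%. The part of GC content in the siRNA calls was not tested beyond this correction.

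**Figure D5:**
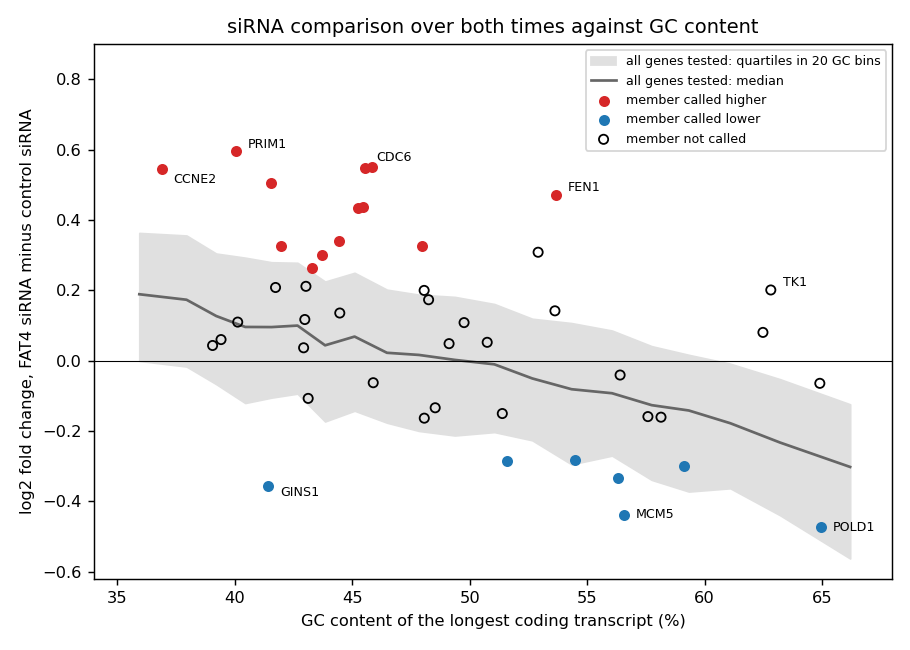
Log2 fold change of the FAT4 siRNA over both times against GC content of the longest coding transcript; filled points are members called higher or lower, open points members not called, and the line and band are the median and quartiles of all genes tested in 20 bins of GC content. The all-gene median falls from left to right, most members called higher lie left of 50% GC, and GINS1, FEN1 and TK1 lie away from the line.

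The 3′ UTRs were searched for 2 words of 7 bases that earlier work picked on these same siRNA ratios, so their shares support nothing. TTGGACT occurred in 6 of 46 members (13.0%) and 11.8% of 12404 genes. AGCCTTA occurred in 7 of 46 (15.2%) and 11.1%. Of the 13 members that rose, 4 held the first and 4 the second, with GINS4 and MCM10 holding both. The counts were 1 and 0 of the 7 that fell, and 1 and 3 of the 26 not called. The sites of CDC6 and ORC6, which rose, and of LIG1, which fell, are printed with the word in capitals as examples of each class.
CDC6: gatgctgcAGCCTTAagagacgt
ORC6: attggtatAGCCTTAtgtgcttt
LIG1: tgcacattTTGGACTagattttc

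Other genes of the replication program were read from the same fit. Their calls with DESeq2, under the other settings and after the GC and length correction were not examined. For every list below, the shares over all genes tested are 11.9% higher and 14.1% lower with the FAT4 siRNA. With time they are 13.8% higher and 12.8% lower. Of 30 further replication factors, 8 rose and 1 fell with the FAT4 siRNA, and 1 rose and 9 fell with time. POLE3, a small histone-fold subunit of polymerase epsilon, was at 155, 105, 211 and 153 CPM, with 0.49 for the siRNA and -0.51 for time. DONSON, a helicase assembly factor, rose by 0.47, and DBF4, the activator of the CDC7 kinase that fires origins, by 0.43. ORC5 rose by 0.36, and CHTF18, part of an alternative clamp loader, had -0.34. TIPIN, a fork protection factor, had -0.56 with time, the checkpoint mediator CLSPN -0.53, and POLD4, the smallest subunit of polymerase delta, rose by 0.85 with time from 11.2 to 19.3 CPM in control and from 10.8 to 20.3 CPM with the FAT4 siRNA.

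Of 12 further nucleotide synthesis genes, 3 fell with the FAT4 siRNA. SAMHD1, which degrades deoxynucleotides, was at 27.6 CPM (24 h) and 21.8 CPM (48 h) in control cells, against 16 CPM (24 h) and 7.42 CPM (48 h) after FAT4 siRNA. Both FAT4 siRNA libraries were below both controls, and its log2 fold change was -1.13 (edgeR adjusted p = 4.72e-12), opposite in sign to that of RRM2; with time it had -0.66. The folate enzyme SHMT1 (-0.49) and the kinase DCK (-0.34) also fell. With time 6 of the 12 fell and RRM2B, the other small subunit of ribonucleotide reductase, rose by 0.48. Of the falls, DCTPP1 had -0.62 and UMPS -0.56.

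Of 23 regulators of the passage from G1 to S phase, 6 rose and 1 fell with the FAT4 siRNA. E2F7, an atypical E2F that represses replication genes, was at 49.2, 42.3, 97.3 and 87.6 CPM and rose by 1.02 (edgeR adjusted p = 6.87e-20). The cyclin-dependent kinase inhibitor CDKN1A rose by 0.49, and the pocket proteins RBL1 and RB1 by 0.44 and 0.36. SKP2, the ubiquitin ligase subunit that marks CDKN1B for degradation, had -0.31. With time 3 rose, a share near the 13.8% over all genes tested, and 8 fell, beside 12.8%. CDKN1C had 2.25 with time at 0.474 to 3.43 CPM, and CDKN1B rose by 0.46, while E2F4 and E2F2 had -0.53 and -0.45.

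Among 20 other E2F target genes, 3 rose (BRCA2 by 0.52, BLM by 0.38 and RAD51AP1 by 0.27) and 0 fell with the FAT4 siRNA in the edgeR fit. That share of risers was near the 11.9% over all genes tested. BRCA2, BLM and RAD51AP1 had GC contents of 36.3%, 41.2% and 36.0%, where the median siRNA change of all genes tested was positive. With time 0 rose and 6 fell, led by UHRF1 and DNMT1 at -0.51 and -0.50. Mitosis genes, which mark cells past replication, had 9 of 24 higher and 0 lower with the FAT4 siRNA. With time 1 was higher and 3 lower, the latter a share near the 12.8% over all genes tested. With the FAT4 siRNA HMMR rose by 0.92, CCNA2 by 0.41, NDC80 by 0.40 and CENPE by 0.37. The median log2 fold change of the mitosis genes was 0.182 for the siRNA and -0.0924 for time, beside 0.109 and -0.239 for the 46 members. The median GC content of the mitosis genes was 42.9%, below the 48.0% of the members and the 48.5% of all genes tested. The siRNA values of the mitosis genes and the members are therefore not on a like footing. Whether the mitosis and replication genes differed was not tested.

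Some counts are uncertain because the sources used here do not give the annotation and strand setting behind them. In GENCODE 29, 5 members share exon bases with another protein-coding gene on the same strand and 11 on the opposite strand. POLA2 shares 2012 bases and RRM2 1077 with unnamed loci, and PRIM1 395 with NACA and another locus. On the opposite strand TYMS shares 967 bases with ENOSF1 and CCNE2 1629 with INTS8. Named pseudogenes exist for 8 members: POLD2, PCNA, RFC3, RFC5, RPA2, FEN1, RRM2 and TYMS.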

How the data were processed

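Whole-number read counts per gene, not normalized, were deposited by the authors, 1 library a file. Per the labels' protocols, the RNA went into stranded mRNA libraries. Tools named in the submitters' processing notes were HTSeq, SAMtools, TopHat2 and CASAVA 1.8.2, with build hg19. Annotation and strand setting: not given in the sources used here. Reads outside genes (19.5% to 20.5%) and on several genes (0.772% to 0.804%) stayed out of library sizes.

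Counts were fitted with edgeR 4.0.16 in R 4.3.3: TMM scaling, filterByExpr (minimum count 10, total 15; 13712 genes kept), quasi-likelihood test, siRNA and time as additive terms over 4 libraries, two-sided, Benjamini-Hochberg at 0.05 over all genes. Prior degrees of freedom were infinite and the common biological coefficient of variation 0.0737. Log2 ratios of single libraries are of CPM + 1, and intervals of plain CPM ratios are exact 95% Clopper-Pearson intervals. The difference between the times has a normal interval on counts. DESeq2 1.42.0, other scalings, filters and dispersions were tried. The code was tested on simulated data. Transcripts of GENCODE 29 (on GRCh38, so no coordinates of it are given) matched 95.5% of tested genes.

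The members and gene lists were chosen with earlier results of these data known. All members could be named. Per role, values in every library are given for up to 4 members with the largest called changes of each term, and for the 4 highest and 4 lowest differences between the times. Of each other list up to 4 called genes per term are named. CHTF18 and SKP2, the only genes of their lists that fell with the FAT4 siRNA, were added after their values were seen. A result for 1 gene of the lists is not reported here.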

Additional observations from a re-analysis of the deposited data

Results flagged for a closer look

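GINS2, a subunit of the GINS complex, was picked out because its counting interval for the siRNA ratio lay above 1 at 24 h and below 1 at 48 h. The sign of the siRNA ratio differed between the times for 5 members, GINS2 among them. The share of all genes tested with such opposite intervals was not taken. The log2 of the plain CPM ratio (FAT4 siRNA over control) came to 0.240 at 24 h and to -0.153 at 48 h, a difference of -0.3931. Each time has 1 library per siRNA, so the difference was not tested. GINS2 was not called in the siRNA comparison over both times (edgeR adjusted p = 0.767).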

How the results depend on the processing

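No paired analysis was possible because each siRNA and time had 1 library and the labels give no replicate numbers, and for the same reason no library could be left out with a test remaining for both terms. Counts of members called higher and lower with the FAT4 siRNA (13 and 7) became 8 and 2 with DESeq2, 8 and 2 with an assumed biological coefficient of variation of 0.1, and 0 and 0 with siRNA as the only term, where 10 members and 1706 genes had an unadjusted p under 0.05. The GC and length correction left 3 lower. Over all genes these settings gave 599 higher and 635 lower with DESeq2, 860 higher and 1310 lower with the assumed variation, and 0 and 0 with siRNA alone. Members lower at 48 h (22) became 10 with DESeq2, 10 with the assumed variation and 0 with time alone, where 8 members and 1821 genes had an unadjusted p under 0.05. The 1 member higher at 48 h, ORC3, became 0 with DESeq2 size factors in edgeR, with no filter, with time alone, with DESeq2, with the assumed variation and with the GC correction. Over all genes, time gave 531 higher and 645 lower with DESeq2, 1480 higher and 824 lower with the assumed variation, and 46 and 4 with time alone. The cause of these losses was not tested. Of the 20 siRNA calls among members, 10 remained with DESeq2; of the 23 time calls, 10. No called member changed sign under any setting. The 4 median member ratios kept their sign under other scalings and pseudocounts.

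CCNE1, with 85 to 183 counts a library, was the member of least depth, and its counting interval for the siRNA ratio ran from 0.970 to 1.52 at 24 h.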
